A study of Drosophila melanogaster with 3 samples.

Results

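Chemoreceptor genes of Drosophila melanogaster are described here by the sites that the transcription factor B-H1 occupied around them in the embryo. The set holds the protein-coding genes named as odorant receptors (Or, with the co-receptor Orco), gustatory receptors (Gr) or ionotropic receptors (Ir), chosen by name alone. It comprised 180 of 13945 protein-coding genes on the chromosome arms, with 60 genes in each of the 3 families. Of these, 31 lay on arm 2L, 46 on 2R, 35 on 3L, 43 on 3R and 25 on X, and 6 pseudogenes with such names were not counted.

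The data were from chromatin immunoprecipitation followed by sequencing (ChIP-seq) on whole embryos, collected at 8 to 24 h by the source label; a separate age label gives a different value and was not used. The embryos were transgenic for a B-H1-eGFP fusion, which an anti-GFP antibody precipitated. All 3 biological replicates belonged to 1 group and carried the transgene, and the control experiment that the labels mention was not used here. No transcripts were measured, and a site occupied in few cells cannot be told apart from one weakly occupied in many.

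Insect odorant receptors form ion channels with Orco, their shared partner, in olfactory neurons. Gustatory receptors detect sugars, bitter compounds, pheromones and carbon dioxide. Ionotropic receptors, relatives of glutamate receptors, detect acids, amines, temperature and humidity together with the co-receptors Ir8a, Ir25a and Ir76b. B-H1 and its neighbour B-H2 encode Bar-class homeodomain proteins known for roles in external sensory organs, the eye and the leg. Each receptor is typically transcribed in a small class of sensory neurons, and many are known mainly from the adult fly.

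B-H1 summits were scarce at the promoters of these genes. A region was called reproducible when the thresholded peaks of all 3 replicates overlapped there, and its summit was compared with the transcription start sites (TSSs). At 132 of the 180 genes the annotated TSS was the first coding base, against 3.69% of all genes. Within 1 kb of a TSS, 1 of 180 chemoreceptor genes had a reproducible summit (0.556%), against 7.9% of all protein-coding genes. That gene was Or88a, a receptor of trichoid olfactory neurons that respond to fly odours. When a peak of any single replicate was enough, the count was 3 of 180 (1.67%), against 19.5% of all genes. The added genes were Gr32a, a receptor for bitter compounds and male pheromone, and Ir60e. Both had a thresholded peak in replicate 2 alone.

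The gene bodies held no summit. None of the 180 genes had a reproducible summit between its start and end, against 4.78% of all protein-coding genes. None had a thresholded summit of even 1 replicate there, against 11.8% of all genes. Chemoreceptor genes are compact, and 157 of the 180 spanned 1 to 3 kb. Among all genes of that length, 1.28% held a reproducible summit within the span and 3.79% held one of any replicate, and the 157 receptor genes held 0. Shares this low correspond to few genes in a set of that size.

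Wider windows took in more sites. In the span or 5 kb around it, 14 of 180 genes (7.78%) had a reproducible summit, against 20.7% of all genes, and these summits belonged to 12 regions. With 2 kb around the span the count was 4, namely Or88a, Or85f, Gr89a and Gr97a, against 13.8% of all genes. With 10 kb it was 25 (13.9%), against 30.2%. Peaks of any replicate lay in the span or 5 kb around it at 29 genes (16.1%), against 43.9% of all genes. The remaining 151 genes had no thresholded peak in this window in any replicate.

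By family, the counts were small throughout. In the span or 5 kb around it, 20.7% of all genes had a reproducible summit. Among Or genes there were 3 of 60 (5.0%): Or45b, Or85f and Or88a. Among Gr genes there were 7 of 60 (11.7%): Gr59f, Gr61a, Gr64d, Gr64e, Gr64f, Gr89a and Gr97a. The Gr64 genes are neighbours and share 1 region, so the 7 genes had 5 regions. Among Ir genes there were 4 of 60 (6.67%): Ir25a, Ir48c, Ir51b and Ir68b. Whether the families differ was not tested.

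**Figure D1:**
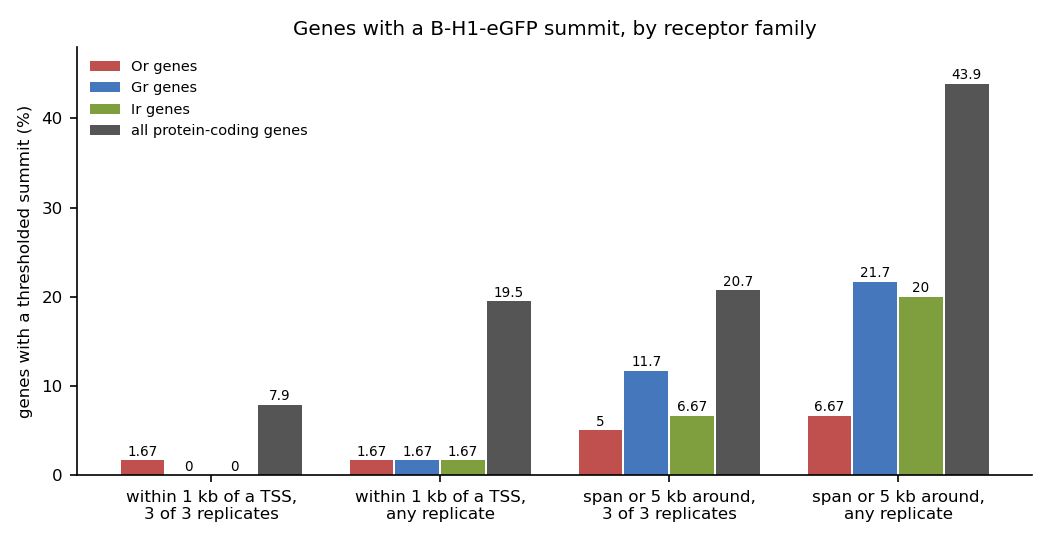
Share of Or, Gr and Ir genes (60 each) and of all protein-coding genes with a thresholded B-H1-eGFP summit, in percent, under 4 rules that combine the window with the number of replicates required. The bars of all genes are the tallest under every rule, from 7.9% to 43.9%, and the Gr bar is the tallest of the 3 families in the window of 5 kb around the span.

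Sequences of 5 of the 12 regions are shown because they are the ones on arms 3L and 3R whose 200 bases around the summit hold no annotated exon. They are on the plus strand of Release 6 (dm6). The 6-mers searched on both strands were TAATTG and the related TAATTA, with TAAACG and also TATCGA as further ones, and matches are in capitals. TAATTA reads the same on both strands and shares its first 5 letters with TAATTG.
Or88a chr3R:14108685-14108884: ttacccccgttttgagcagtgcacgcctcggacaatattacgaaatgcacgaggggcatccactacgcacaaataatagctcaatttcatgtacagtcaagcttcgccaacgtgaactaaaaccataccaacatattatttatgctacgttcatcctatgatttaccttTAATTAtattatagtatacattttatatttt
Gr89a chr3R:16497531-16497730: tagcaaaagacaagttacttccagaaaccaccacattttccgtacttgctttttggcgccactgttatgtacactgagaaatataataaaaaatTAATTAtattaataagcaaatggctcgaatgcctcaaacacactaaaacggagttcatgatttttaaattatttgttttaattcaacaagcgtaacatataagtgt
Gr97a chr3R:26967702-26967901: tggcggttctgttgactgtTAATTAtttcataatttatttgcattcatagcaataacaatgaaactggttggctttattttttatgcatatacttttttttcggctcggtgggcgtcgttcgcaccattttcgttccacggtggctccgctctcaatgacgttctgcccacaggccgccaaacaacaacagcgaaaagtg
Ir68b chr3L:12131908-12132107: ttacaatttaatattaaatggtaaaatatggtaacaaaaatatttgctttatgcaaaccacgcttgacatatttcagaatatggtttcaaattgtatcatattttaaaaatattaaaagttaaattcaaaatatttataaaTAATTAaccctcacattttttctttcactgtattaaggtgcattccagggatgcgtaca
Or85f chr3R:9401259-9401458: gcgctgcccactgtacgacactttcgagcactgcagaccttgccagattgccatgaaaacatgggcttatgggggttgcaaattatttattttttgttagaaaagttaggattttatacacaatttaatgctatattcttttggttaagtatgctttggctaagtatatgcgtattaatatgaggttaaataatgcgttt
In these windows TAATTA began 6 bases before the summit at Gr89a, 81 bases before it at Gr97a, 41 bases after it at Ir68b and 69 bases after it at Or88a. The Or85f window held none of the 4 6-mers. Over all 12 regions, 5 held TAATTA, 2 held TAATTG, 2 held TATCGA and 0 held TAAACG. Among all 1375 reproducible regions the shares were 19.2%, 19.9%, 10.3% and 8.07%. A match describes the letters in the window and is no measure of binding.

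Or88a (FBgn0038203) was the one receptor gene with a reproducible summit within 1 kb of its TSS. Its region, chr3R:14108634-14108966, had a signal of 95.7 in replicate 1, 182.9 in replicate 2 and 83.0 in replicate 3, in the units of the authors' peak caller, whose scale is not stated. These values stood at percentiles 73.6, 92.0 and 68.3 of the thresholded lists, a mean of 78.0 ± 12.4 (SD, n = 3). The summit, intergenic, lay 660 bp upstream of Or88a and 464 bp upstream of CG12402. CG12402 is transcribed the other way, so the region sits between the starts of both genes and is nearer to CG12402. The peaks alone do not assign it to either gene.

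Or85f, an odorant receptor of the adult antenna, had a region 3169 bp downstream of its TSS at chr3R:9401161-9401508. The signal was 143.4, 128.9 and 111.1 in replicates 1, 2 and 3, at a mean percentile of 84.8 ± 2.9 (SD, n = 3). The summit was 133 bp upstream of RpL34b, a gene of the large ribosomal subunit, and 136 bp upstream of CG8132. Or45b, a larval odorant receptor, had a region 5971 bp from its TSS at chr2R:9565419-9565740, with a signal of 88.7, 107.5 and 82.0 and a mean percentile of 71.8 ± 5.1 (SD, n = 3). There the nearest protein-coding start was that of Alp6, an alkaline phosphatase gene, at 3931 bp, and the noncoding asRNA:CR45281 started 379 bp away. In the span or 5 kb around it, Or88a was the 1 called gene among 4 trichoid pheromone receptors, a share near the 20.7% of all genes. Or45b was the 1 among 25 larval receptors, below that share.

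Gr89a (FBgn0038440), one of the receptors found widely in bitter-sensing neurons, was the exception among the 12 regions. Its region, chr3R:16497428-16497761, was the one region whose nearest protein-coding TSS belonged to a chemoreceptor gene. The summit lay 1328 bp from that TSS and 186 bp beyond the 3′ end of the gene, in intergenic sequence with no other protein-coding start within 1 kb. The signal was 69.5, 152.7 and 54.4 in replicates 1, 2 and 3. The percentiles were 56.5, 88.9 and 38.6, so replicate 2 was well above the others, with a mean of 61.3 ± 25.5 (SD, n = 3). Gr89a was the 1 gene called in the span or 5 kb around it among 5 bitter receptors, which included Gr32a, Gr33a and Gr66a, a share at the background of 20.7% of all genes.

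The sugar receptors Gr61a, Gr64d, Gr64e and Gr64f made up 4 of 9 such genes (44.4%) with a reproducible summit in the span or 5 kb around it, against 20.7% of all genes. These 4 genes had 2 regions, and 3 of the 4 share 1 of them. The region shared by the Gr64 genes, chr3L:4040252-4040560, had a signal of 66.9, 61.3 and 60.2, at a mean percentile of 47.1 ± 6.3 (SD, n = 3). It was 4612 bp from the TSS of Gr64f, a sugar co-receptor, and 71 bp into CG11593, in its 5′ UTR. The start of Rcd5 was 118 bp away. The Gr61a region, chr3L:837552-837905, was 3749 bp upstream of Gr61a and lay in an intron of CG13901, 119 bp from its TSS. The start of CG13887 was 159 bp away. The signal of the Gr61a region was 88.9, 92.1 and 101.7, at a mean percentile of 73.1 ± 4.6 (SD, n = 3). The replicates were close to each other at both regions.

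Gr59f and Gr97a made up the rest of the gustatory genes. The Gr59f region, chr2R:23547958-23548309, was 5650 bp from the Gr59f TSS and 9 bp from that of wmd. The start of levy, which encodes a subunit of cytochrome c oxidase, was 79 bp away. The signal of the Gr59f region was 103.8, 82.0 and 96.0, at a mean percentile of 72.3 ± 8.0 (SD, n = 3). The Gr97a region, chr3R:26967647-26967951, lay 1317 bp upstream of Gr97a in an intron of CG5521, 872 bp from the CG5521 start. Its signal of 38.0, 51.1 and 42.2 gave a mean percentile of 15.6 ± 7.7 (SD, n = 3), the lowest of the 12 regions. The percentiles were 7.05, 22.0 and 17.9, low in all 3 replicates.

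Ir25a, the most widely used ionotropic co-receptor, lay near the strongest of the 12 regions. At chr2L:4837741-4837973 the signal was 273.7, 488.8 and 359.5 in replicates 1, 2 and 3, at percentiles of 97.3, 99.4 and 98.6 (mean 98.4 ± 1.06, SD, n = 3). The summit was 2551 bp upstream of Ir25a but 148 bp from the start of tank, in its 5′ UTR, with CG12194 also within 1 kb. The other co-receptors, Orco, Ir8a and Ir76b, had no thresholded peak of any replicate in the span or 5 kb around it. Among 17 antennal ionotropic receptors, Ir25a was the 1 with a reproducible summit in that window (5.88%), against 20.7% of all genes.

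Ir48c is nested in an intron of ths, which encodes a fibroblast growth factor, and its region at chr2R:11791663-11791962 lay in the same gene. That summit was 2358 bp upstream of Ir48c and 1485 bp from the nearest start of ths, with a signal of 85.8, 137.3 and 117.3 and a mean percentile of 79.6 ± 9.5 (SD, n = 3). The Ir51b region, chr2R:15213555-15213883, was 78 bp from the start of row, a chromatin protein gene, and 5719 bp from that of Ir51b. Its signal of 94.7, 94.8 and 91.3 was nearly equal across replicates, at a mean percentile of 72.8 ± 0.88 (SD, n = 3). The Ir68b region, chr3L:12131858-12132183, was 138 bp from the start of DEF8 and 4614 bp upstream of Ir68b. There the signal was 57.4, 130.3 and 56.1, high in replicate 2 alone, with a mean percentile of 55.7 ± 24.9 (SD, n = 3).

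**Figure D2:**
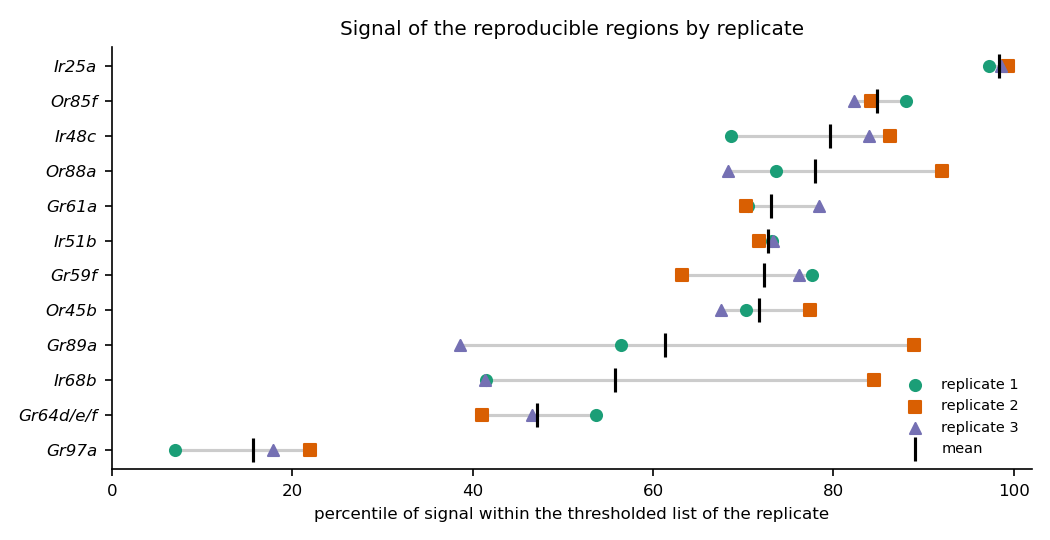
Percentile of peak signal within the thresholded list of each replicate (points) and the mean over 3 replicates (bar) for the 12 reproducible regions in or within 5 kb of a chemoreceptor gene, sorted by the mean. The Ir25a region is highest at 98.4, the Gr97a region lowest at 15.6, and replicate 2 stands well apart at Gr89a and Ir68b.

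Most of the 12 regions lay nearer to the starts of other genes than to those of the receptors. The nearest protein-coding TSS belonged to another gene for 11 regions and to a chemoreceptor gene for 1. That other TSS was within 1 kb in 9 of the 12. In 7 it was within 200 bp. Among all 1375 reproducible regions, 802 had a protein-coding TSS within 1 kb. Counting only the nearest gene, the share called in the span or 5 kb around it fell from 20.7% to 7.59% of all genes. The share of receptor genes fell from 7.78% to 0.556%. For the 12 regions, the median distance to the nearest protein-coding TSS was 143 bp, against 557 bp over all 1375 reproducible regions. Relative to the receptor gene, 6 summits were upstream and 6 downstream. Their median GC content over 200 bases was 31.3%, against 34.0% over all reproducible regions.

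**Figure D3:**
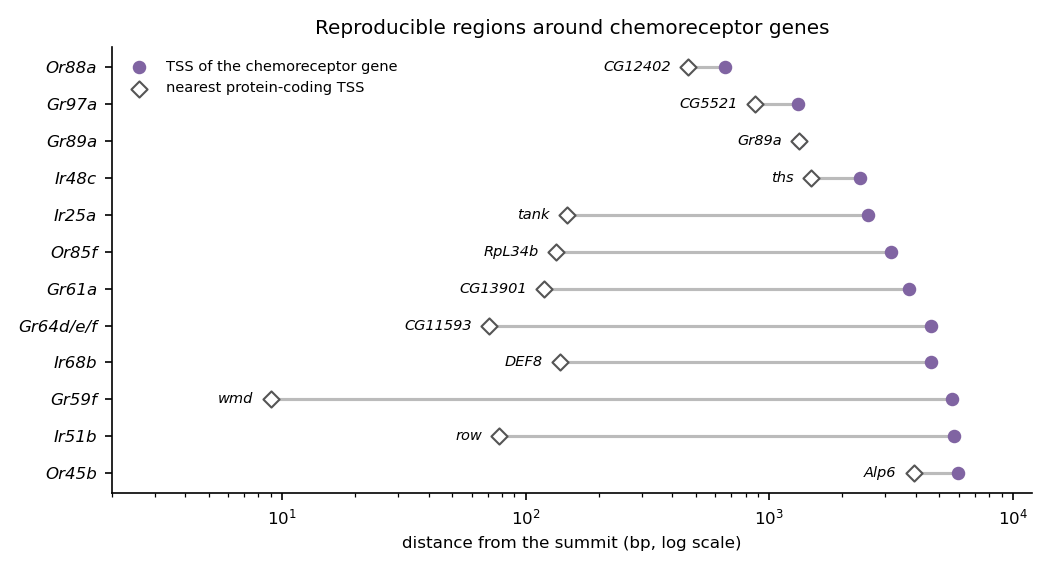
Distance in bp (log scale) from the summit of each of the 12 reproducible regions to the closest chemoreceptor TSS (filled circles) and to the nearest protein-coding TSS, named at the open diamonds. The pair coincides for Gr89a alone; for 7 regions the nearest TSS is within 200 bp, while their receptor TSS is 2551 bp to 5719 bp away.

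A further 20 regions in the same window had a peak in 1 or 2 replicates, and 15 chemoreceptor genes were reached by such regions alone. The 6 regions of 2 replicates all included replicate 2. They lay near Gr5a, the trehalose receptor, and near Ir31a, Ir54a, Ir68b, Ir76a and Or85f. In 5 of the 6 a TSS of another protein-coding gene was within 1 kb, and a receptor was nearest in 0. The Gr5a region was in an intron of Tre1, a G protein-coupled receptor of germ cell migration, 2544 bp upstream of Gr5a. Its percentile was 94.3 in replicate 2 and 43.4 in replicate 3.

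Of the 14 regions seen in 1 replicate, 9 came from replicate 2, 4 from replicate 1 and 1 from replicate 3. Replicate 2 also had the longest thresholded list, with 3609 peaks on the arms against 1971 and 2199. The Gr32a region, chr2L:11113095-11113394, was 769 bp upstream of Gr32a and 184 bp from Idua, with a signal of 56.9 at percentile 33.5 of replicate 2. The Ir60e region, chr2R:24531931-24532230, was 809 bp upstream of Ir60e and 31 bp from CG13585, with a signal of 44.9 at percentile 10.8. Near Gr63a, which forms the carbon dioxide receptor with Gr21a, a replicate 1 peak with a signal of 38.1 lay 4297 bp from the TSS and 268 bp from Fie. A replicate 2 candidate past the IDR threshold also lay in the Gr63a window but is absent from the thresholded list. A receptor TSS was nearest for 2 of the 14, those at Gr93d (3748 bp) and Ir48c (2071 bp). Percentiles of the 14 regions ran from 1.93 to 69.96 with a median of 24.1, against 72.6 for the 12 reproducible regions.

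Gene layout was compared next. The 180 genes had few alternative starts, with 1 TSS in 167 of them (92.8%) against 73.5% of all genes. Among all genes with 1 TSS, 5.68% had a reproducible summit within 1 kb, against 1 of 167 receptor genes (0.599%). Another protein-coding TSS lay within 1 kb for 35 receptor genes (19.4%), against 42.9% of all genes. Of the 35, 0 were called, against 12.3% of all genes with such a neighbour. Among genes without such a neighbour, 4.62% were called, against 1 of 145 receptor genes (0.690%). With both conditions, 2.67% of all genes and 1 of 136 receptor genes (0.735%) were called. These subsets were chosen after seeing the data.

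The ranked lists, which include the thresholded peaks, gave a wider view of the same promoters. These lists hold every candidate peak before the cutoff on the irreproducible discovery rate (IDR), 101546, 97966 and 72939 on the arms in replicates 1, 2 and 3. The best candidate within 1 kb of a TSS was taken for each gene, and its percentile of signal was set to 0 where there was none. Thresholded peaks had ranked percentiles as low as 0.0167, 0.0623 and 0.0055 in replicates 1, 2 and 3. The percentile therefore does not measure nearness to the cutoff. A candidate was present at 158 of the 180 genes in replicate 1 (87.8%), at 74 in replicate 2 (41.1%) and at 115 in replicate 3 (63.9%). Among all genes the shares were 71.1%, 81.0% and 71.2%. Receptor genes thus had candidates more often than all genes in replicate 1 and less often in replicate 2, and the order of the 2 sets was not the same in all replicates.

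The replicate difference was as plain in the percentiles. The median over the 180 genes was 63.9, 0 and 38.3 in replicates 1, 2 and 3, against 60.4, 80.7 and 59.6 over all genes. The median of the 3-replicate means was 39.5, against 54.2 over all genes. Without replicate 2 the receptor median was 47.3, against 49.5 over all genes, so the 2 medians lay close together without it. A mean above 90 was reached by 2 receptor genes (1.11%), against 17.2% of all genes. Candidates in all 3 replicates were found at 38 receptor genes (21.1%), against 47.0%. Among genes with 1 TSS, a subset chosen after seeing the data, these gaps were narrower. The shares there were 1.2% against 12.6% and 19.8% against 41.3%, and the median of the means was 38.4 against 49.4. No candidate in any replicate was found at 5 of the 180 receptor genes and at 432 of the 13945 protein-coding genes, which are similar shares. The 5 receptor genes were Ir54a, Ir75d, Or19a, Or33a and Or33b.

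The ranked lists also differed in how many candidates lay near promoters. Of all candidates, 18.0% lay within 1 kb of a protein-coding TSS in replicate 1, 31.3% in replicate 2 and 22.0% in replicate 3, while their median GC content was 44.5%, 45.0% and 45.5%. Split by promoter GC into 5 equal parts of all genes, the receptor genes had fewer candidates than all genes in replicate 2 in each part, from 26.9% to 64.3% against 79.4% to 82.4%. In replicate 1 they had more candidates in each of the 5 parts, from 73.7% to 91.7% against 63.8% to 80.4%. In replicate 3 they had fewer in 4 parts and more in 1. What part the composition of the lists has in the receptor values was not tested.

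**Figure D4:**
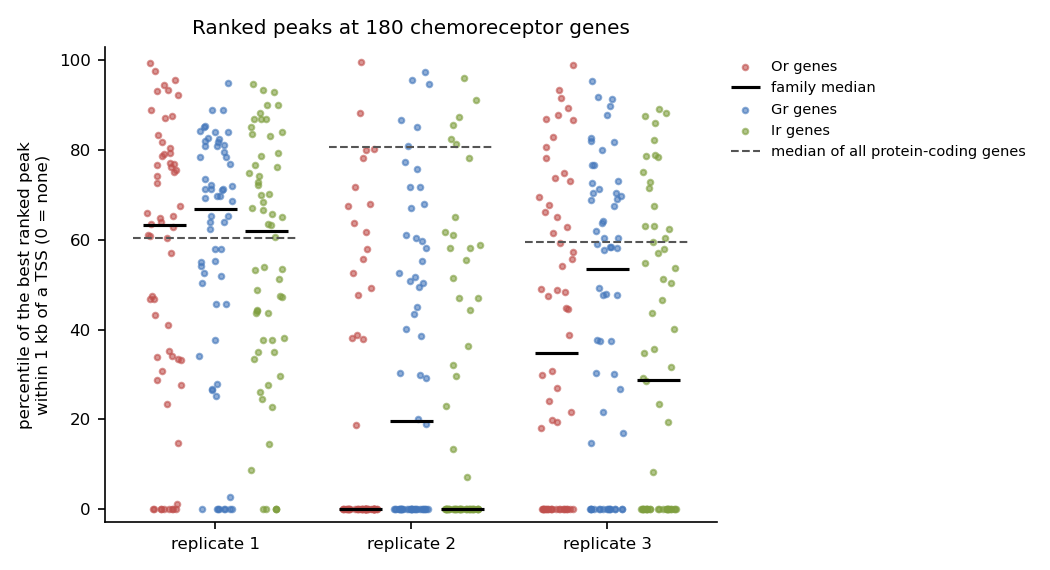
Percentile of signal of the best ranked peak within 1 kb of a TSS (0 where none) for each of 180 Or, Gr and Ir genes in each replicate, with the family medians (solid bars) and the median of all protein-coding genes (dashed). In replicate 2 the Or and Ir medians are 0 and the Gr median 19.6, under the dashed line at 80.7; in replicate 1 all 3 family medians are above the dashed line at 60.4.

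Or88a and Gr32a stood at the top of this order. Or88a had percentiles of 99.5, 99.7 and 99.0, a mean of 99.4 ± 0.35 (SD, n = 3). Gr32a followed with 85.3, 97.4 and 91.9, a mean of 91.5 ± 6.1 (SD, n = 3). The authors' −log10 IDR at Gr32a was 0.28, 2.82 and 1.34 in the 3 replicates, with 2 as the lowest value in the thresholded lists. These best candidates overlapped one another, with the summits of replicates 1 and 3 lying 135 bp and 140 bp from that of replicate 2. Only replicate 2 passed the threshold. A summit within 1 kb of Gr32a was also in the authors' conservative list drawn from all replicates, as was one within 1 kb of Or88a.

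Orco came next, at 97.6, 67.7 and 86.8 (mean 84.0 ± 15.1, SD, n = 3), but its −log10 IDR was at most 0.40 in any replicate. Gr93b followed with a mean of 80.6 ± 14.7 (SD, n = 3). Gr68a, a gustatory receptor known from the male foreleg and courtship, had 77.7 ± 4.5 (SD, n = 3), and Ir60e had 77.1 ± 23.2 (SD, n = 3). The 10 highest were completed by Ir48c at 76.1, Gr39b at 75.5, Or56a, the geosmin receptor, at 75.5 and Gr58a at 75.2. Of these 10, only Or88a, Gr32a and Ir60e had a thresholded peak within 1 kb.

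The other receptors of well-known function had mean percentiles from 12.8 to 73.8. Ir25a had a mean percentile of 73.8 ± 11.7 (SD, n = 3), Ir8a 40.6 ± 19.6 (SD, n = 3) and Ir76b 36.1 ± 32.0 (SD, n = 3). The carbon dioxide receptors Gr21a and Gr63a had 84.2, 0 and 80.0, and 50.3, 94.6 and 0, in replicates 1, 2 and 3, so each lacked a candidate in 1 replicate, and not the same one. The bitter receptors Gr66a and Gr33a likewise had candidates in 2 of 3 replicates, with means of 41.9 ± 36.6 and 51.8 ± 45.0 (SD, n = 3). Gr28b, a gene with roles in light and heat sensing, had 55.5 ± 26.4 (SD, n = 3). Among sugar receptors Gr64f had 39.7 ± 37.0, while Gr5a (15.0 ± 26.1) and the fructose receptor Gr43a (12.8 ± 22.2) had a candidate in replicate 2 alone (SD, n = 3).

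The promoters of these genes held the homeodomain-type letters TAATTG and TAATTA more often than promoters in general. In the 300 bases from 250 before to 50 after the most 5′ start, TAATTG was present on either strand at 94 of 180 receptor genes (52.2%), against 25.2% of all genes. TAATTA was present at 80 (44.4%), against 20.4%. Either one was present at 133 (73.9%), against 39.8%. The other searched letters were less frequent than in all genes, with TAAACG at 18 of 180 against 14.5% and TATCGA at 30 of 180 (16.7%) against 27.7%. Median GC content was similar, 39.3% against 38.0%.

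The share of each 6-mer varied by family. TAATTG was in 63.3% of Ir and 58.3% of Or promoters but 35.0% of Gr promoters. TAATTA was in 58.3% of Gr, 43.3% of Or and 31.7% of Ir promoters. The stretch of 300 bases just upstream of the start showed the widest gap to all genes, with TAATTG at 54.4% of receptor genes against 27.6% and TAATTA at 46.7% against 22.9%. In the next 300 bases upstream the shares were 28.3% against 26.3% and 20.6% against 20.4%. In the first 300 bases downstream TAATTG was at 17.8% against 20.0%.

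**Figure D5:**
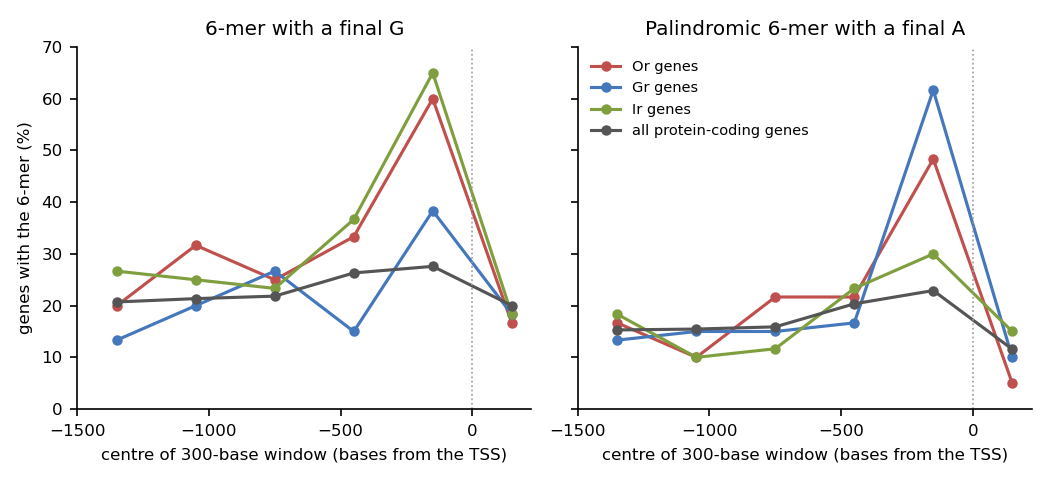
Share of genes, in percent, that hold each 6-mer on either strand in windows of 300 bases along the most 5′ TSS (upstream negative; dotted line at the TSS), for Or, Gr and Ir genes (60 each) and all protein-coding genes. The left panel shows TAATTG and the right panel TAATTA. In the window just upstream, Ir reaches 65.0% on the left, and Gr reaches 61.7% on the right, while all genes are at 27.6% and 22.9%.

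The annotation of these genes limits that comparison. The annotated start coincided with the first coding base at 132 of 180 receptor genes (73.3%), against 3.69% of all genes. For most receptor genes the window was therefore counted from the start codon. The counts within 1 kb of a TSS and the ranked percentiles were measured from the same annotated starts. Among the other 383 genes without an annotated 5′ UTR, TAATTG was present at 34.5% and TAATTA at 27.9%. The 132 receptor genes without one had 58.3% and 46.2%. The 48 receptor genes with one had 35.4% and 39.6%, against 24.6% and 19.9% of the other 13382 genes with one. Occupancy was then set beside these letters. Over all genes, 7.48% of those with TAATTG in the promoter and 8.04% of those without had a reproducible summit within 1 kb. For TAATTA the shares were 8.21% with and 7.82% without, for TAAACG 8.61% and 7.78%, and for TATCGA 9.21% and 7.40%. Among receptor genes 1 of the 94 with TAATTG was called, and that was Or88a, whose promoter also held TAATTA and TATCGA.

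Promoters of 3 receptors are shown as examples of these letters near and away from a peak, read 5′ to 3′ on the strand of the gene and ending at the base before its most 5′ start (Release 6, dm6). Gr32a had a peak of 1 replicate within 1 kb, while Ir76b and Orco had none, and matches to the 4 6-mers are in capitals.
Gr32a chr2L:11113764-11114013: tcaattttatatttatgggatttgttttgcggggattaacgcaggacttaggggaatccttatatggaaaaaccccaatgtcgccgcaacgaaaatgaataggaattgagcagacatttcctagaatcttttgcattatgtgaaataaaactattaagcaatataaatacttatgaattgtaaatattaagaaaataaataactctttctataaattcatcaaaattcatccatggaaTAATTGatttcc
Ir76b chr3L:20111535-20111784: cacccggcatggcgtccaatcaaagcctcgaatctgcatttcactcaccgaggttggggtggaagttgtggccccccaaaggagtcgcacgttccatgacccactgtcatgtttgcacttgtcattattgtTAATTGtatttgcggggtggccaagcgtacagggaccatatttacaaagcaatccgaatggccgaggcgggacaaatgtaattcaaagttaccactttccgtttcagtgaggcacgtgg
Orco chr3R:5412407-5412656: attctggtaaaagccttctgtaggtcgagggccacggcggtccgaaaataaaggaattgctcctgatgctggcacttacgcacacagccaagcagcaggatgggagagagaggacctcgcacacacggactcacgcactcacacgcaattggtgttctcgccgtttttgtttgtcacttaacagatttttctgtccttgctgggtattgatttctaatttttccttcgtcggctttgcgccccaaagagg
Gr32a, on the plus strand, held TAATTG beginning 12 bases before its start. Ir76b, on the minus strand, held TAATTG beginning 119 bases before its start. Orco, on the minus strand, held none of the 4 6-mers in these 250 bases.

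Other genes of chemosensation were counted in the same windows. Within 1 kb of a TSS, a reproducible summit was found at 0 of 52 odorant-binding protein genes, 0 of 30 ppk channel genes, 0 of 20 CheA and CheB genes and 0 of 2 SNMP genes, beside the 7.9% of all genes. Among 14 transcription factors of olfactory neurons 1 was called (7.14%), a share near that of all genes. It was Xbp1, a factor of the unfolded protein response. Its summit was 92 bp from its TSS, with a signal of 100.4, 86.0 and 69.0 in replicates 1, 2 and 3. In the span or 5 kb around it, 1 odorant-binding protein gene (Obp56i), 4 ppk genes (ppk7, ppk14, ppk28 and rpk) and 2 CheA and CheB genes (CheA87a and CheB42c) had a reproducible summit. The first 2 counts are 1.92% and 13.3% of their lists, beside 20.7% of all genes. With a peak of any replicate in that window, the counts were 13 of 52 odorant-binding protein genes, 8 of 30 ppk genes (26.7%) and 10 of 20 CheA and CheB genes, beside 16.1% of chemoreceptor genes and 43.9% of all genes.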

How the data were processed

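Anti-GFP ChIP-seq of B-H1-eGFP embryos was represented by a ranked and a thresholded peak list for each of 3 biological replicates, on dm6 per the file headers. Peaks were called per replicate and 1 shared file of unstated role entered every list, so the replicates may not be fully independent. Names of the aligner and the caller, and the read depth, were not given in the sources used here. The signal of a peak and its score are the deposited values of the authors' peak caller and IDR step, used only to rank or filter within a list, and the −log10 IDR is as deposited, at least 2 in the thresholded lists. In the series' lists, 32 columns were not matched to a replicate and not used.

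Peaks overlapping by 1 bp or more were merged (Python 3.11.15, pandas 2.3.3, numpy 2.4.6). For a region's summit, the replicate of highest signal percentile was used. Genes came from Ensembl release 115 and sequences from RefSeq Release 6. Counting was tested on simulated data. Named genes are those called, the 10 highest by ranked percentile, 12 receptors of known function, and neighbours of called regions; other genes were named after their values were seen. The members and lists were chosen with earlier results of these data known. No test was run across gene lists.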

Additional observations from a re-analysis of the deposited data

How the results depend on the processing

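Reproducible summits within 1 kb of a TSS, at 1 chemoreceptor gene, stayed at 1 with 2 of 3 replicates, the stronger peaks by signal (above the median), a stricter overlap of the peaks, any base of the region, the most 5′ TSS or any replicate left out (1 to 1). The count was 3 with any 1 replicate, 2 with the authors' conservative list, 0 with the nearest gene only, 0 within 500 bp and 3 within 2 kb. In the span or 5 kb around it, the 14 genes became 29 with any 1 replicate (all genes 43.9%). They became 26 with the conservative list (all genes 35.5%) and 8 with the stronger peaks by signal, above the median (13.5%). With the nearest gene only the count was 1 (all genes 7.59%). It was 0 in the span alone (all genes 4.78%), 4 with 2 kb around it (13.8%) and 25 with 10 kb (30.2%). Leaving out each replicate gave 14 to 17 (all genes 22.7% to 24.3%). The share of receptor genes was below that of all genes under each of these settings. The median ranked percentile of 39.5 ranged from 29.8 to 47.3 when a replicate was left out. It was 21.04 within 500 bp (all genes 37.6), 51.7 within 2 kb (68.2), 61.3 without genes lacking a ranked peak (75.5) and 33.4 by IDR score (50.8). Its difference from all genes was smallest without replicate 2. The subsets of genes by layout, chosen after seeing the data, left the count at 1. Read depth is unknown, so absence of a peak means that none was detectable in these lists, and a window cannot assign a peak to a gene.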
